A study of Mus musculus with 2 samples.

Results

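Peaks of the GFP and SRCAP antibodies overlapped at 2174 intergenic sites far from any annotated transcription start site. These sites were the peaks of the GFP antibody list on chromosomes 1 to 19 that overlapped a peak of the SRCAP antibody list by at least 1 bp, had their midpoint inside no annotated gene and more than 10 kb from every transcription start site (TSS), and held under 50% soft-masked (repeat) bases. They made up 7.57% of the 28718 GFP peaks. The rule left 15953 shared peaks on chromosomes 1 to 19, of which 7417 lay outside genes, 2908 of these more than 10 kb from a TSS, and 2174 of these in sequence with few repeats. Applied to the 28167 SRCAP peaks, the same rule gave 2164 peaks. The cells were SYAT cells, CGR8 mouse embryonic stem cells (mESCs) in which YPet-AID, a yellow fluorescent protein joined to an auxin-inducible degron, was fused to SRCAP on both alleles and the OsTir1 receptor was expressed. The GFP antibody recognises YPet and the SRCAP antibody the protein itself. Control SYAT cells were kept in auxinole, which blocks OsTir1, at 200 nM in the labels but 200 µM in the study's methods. The study describes its CUT&RUN mapping as made in control cells, and the labels list auxinole and no other treatment for both libraries. Each antibody had 1 CUT&RUN library from 100000 cells, so no replicate spread can be given, and the files carry no count of reads, which leaves the depth unknown. Percentages are followed by 95% Wilson intervals and medians by 95% order-statistic intervals, which cover counting error only, since peaks are not independent replicates.

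SRCAP is the catalytic subunit of a remodelling complex that replaces histone H2A with the variant H2A.Z. H2A.Z is best known at promoters, and it also marks enhancers, which are distal stretches of DNA where sequence-specific transcription factors bind and act on genes at a distance, and it is found in the nucleosomes that flank sites bound by CTCF, the protein that anchors chromatin loops. In mESCs, OCT4, SOX2 and KLF factors bind many such distal sites.

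Exact matches to consensus sequences of 7 factors or factor families were more frequent at the member midpoints than 1 kb away. For 6 of them, the highest-ranked single-copy member is printed here from GRCm38, 5′ to 3′ on the strand of the match, with 50 bases either side and the match in capitals, so that the sequence can be read beside the counts that follow. Chromosome names and 1-based positions are those of the printed stretch.
OCT4 octamer, member nearest to Sox9, chr11:112959653-112959760, minus strand: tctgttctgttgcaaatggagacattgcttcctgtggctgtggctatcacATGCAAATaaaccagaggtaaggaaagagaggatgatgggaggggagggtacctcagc
SOX, member nearest to Zfp804a, chr2:81848950-81849057, minus strand: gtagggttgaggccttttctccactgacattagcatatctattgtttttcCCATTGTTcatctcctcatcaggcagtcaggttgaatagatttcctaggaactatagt
KLF, member nearest to Mbip, chr12:56296599-56296707, plus strand: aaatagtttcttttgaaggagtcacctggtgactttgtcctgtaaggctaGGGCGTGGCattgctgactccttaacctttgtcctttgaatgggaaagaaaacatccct
NFY, member nearest to Gm15446, chr5:109866604-109866711, plus strand: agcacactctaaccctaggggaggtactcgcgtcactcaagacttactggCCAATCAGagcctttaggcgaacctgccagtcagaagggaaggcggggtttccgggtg
ZIC, member nearest to Gdi2, chr13:3037127-3037234, minus strand: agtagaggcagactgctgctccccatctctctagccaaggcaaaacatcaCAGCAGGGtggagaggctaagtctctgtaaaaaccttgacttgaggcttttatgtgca
TEAD, member nearest to Mmp16, chr4:17092213-17092320, minus strand: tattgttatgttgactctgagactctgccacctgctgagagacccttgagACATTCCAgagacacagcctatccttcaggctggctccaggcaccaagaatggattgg

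The octamer member lay 177 kb downstream of the TSS of Sox9, a regulator of neural crest and cartilage, and had a GFP score of 221 and a SRCAP score of 251. The SOX member scored 168 and 144, the KLF member 138 and 216, the NFY member 173 and 155, and the TEAD member 150 and 113, in that order of antibodies. The ZIC member scored 1662 and 1765 and lay close to the first sequenced base of chromosome 13. The score is the whole number that the authors deposited for each peak. Its median was 47 in each list.

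The composite OCT4-SOX2 sequence, in which both factors bind side by side, matched in 2 members (0.092%, 0.0252 to 0.335) and in none of 4348 flanking windows. The interval of the difference, -0.0187 to 0.335 points, included 0. Over all windows that met the position and repeat rule the share was 0.00347%. Both members hold the 2 elements on a single stretch, and the one of higher rank is shown. It lay 467 kb upstream of Trpc7, a cation channel gene, and scored 130 and 74. The other, 48.1 kb upstream of Elavl2, a neuronal RNA-binding protein gene, scored 33 and 190.
OCT4-SOX2, member nearest to Trpc7, chr13:57362723-57362836, minus strand: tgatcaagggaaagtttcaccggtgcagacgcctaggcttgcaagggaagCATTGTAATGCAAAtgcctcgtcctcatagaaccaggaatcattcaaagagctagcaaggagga

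The member peaks were narrow. The median width was 369 bp (359 to 379) in the GFP list and 296 bp (289 to 303) for the overlapping SRCAP peak, and both peaks overlapped by a median of 241 bp (236 to 247). Their midpoints lay a median of 57 bp apart, within 50 bp in 988 members (45.4%, 43.4 to 47.5). The overlap reached 50% of both peaks in 1603 members (73.7%, 71.8 to 75.5). The 2174 members overlapped 2169 distinct SRCAP peaks, of which 2090 met the position and repeat rule by their own midpoint, 96.4% (95.5 to 97.1).

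Members scored above the middle of both lists, as did the shared peaks compared with them here. Overlap between the lists is part of the rule, and its part in these scores was not tested. The median GFP score was 57 (54 to 59) and the median SRCAP score 56 (53 to 60), and the median percentiles within the lists were 63 and 61. Shared peaks within 1 kb of a TSS, 6019 in number, had medians of 64 (62 to 65) and 67 (65 to 67). Shared peaks inside genes and as far from a TSS, 1827 in number, had medians of 55 (54 to 57) and 53 (53 to 54). Far intergenic GFP peaks that met the same position and repeat rule without a SRCAP peak, 1887 in number, had a median of 34 (34 to 36) and a median width of 248 bp (244 to 252), below both values of the members. Of 4061 GFP peaks at such positions, 53.5% (52 to 55.1) were shared, against 56.4% of all GFP peaks on chromosomes 1 to 19.

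Scores in the pair of lists rose together across members, with a Spearman rho of 0.472 over 2174 members, which share both libraries. It was 0.462 over the shared peaks inside genes and 0.552 over those within 1 kb of a TSS. The SRCAP score was over 2 times the GFP score in 212 members (9.75%), where the same share over all 15953 shared peaks was 9.97%. The GFP score was over 2 times the SRCAP score in 244 members (11.2%), against 11.5% of all shared peaks. Both shares were near the background.

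**Figure D1:**
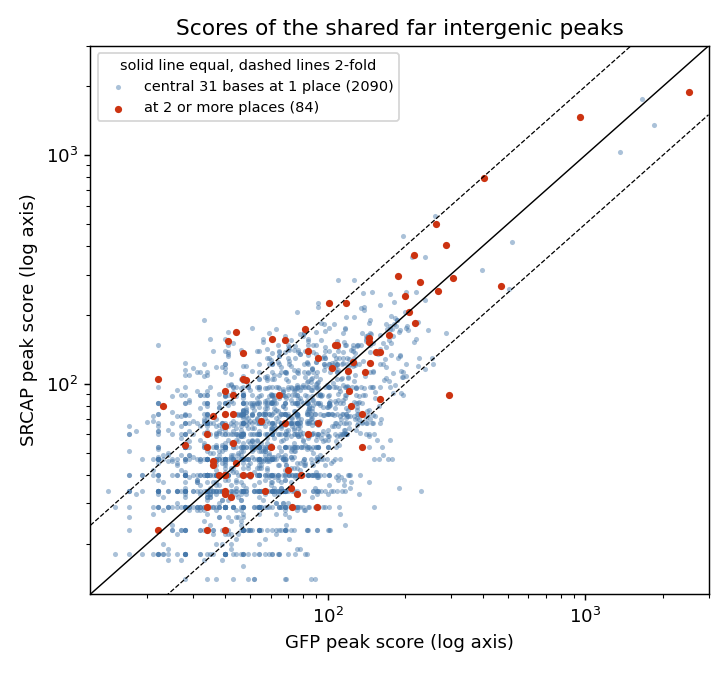
Score of each of the 2174 members in the GFP list (x axis) against that of the overlapping SRCAP peak (y axis), both log axes, with red points for the 84 members whose central 31 bases occur at 2 or more places in the genome. Most points lie between the dashed lines of a 2-fold difference, and the members of highest score include several red points.

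The highest scores were not typical of the group. The member of highest combined rank (the lower of its percentiles in both lists) was chr3:5860331-5860744, 20.5 kb from a TSS, with scores of 2513 and 1885. Its central 31 bases occurred at 7 places in the genome, and the 500 bp around it had a CpG ratio of 1.01, the observed over the expected number of CpG dinucleotides. Of the 10 members of highest rank, 5 had a centre with 7 to 31 copies, for example chr8:15519850-15520094 with scores of 954 and 1463 and 13 copies, and chr14:4072056-4072632 with 307 and 290 and 31 copies. Members with a multi-copy centre numbered 84 of 2174, and their median scores were 74.5 (55 to 104) and 89 (69 to 123) against 57 (54 to 59) and 55 (53 to 59) for the 2090 with a single copy. A further 3 of the 10 lay within 500 kb of the first sequenced base of a chromosome, a zone that held 8 members (0.368%) and 0.233% of all rule-meeting sequence. The part of sequence copies in these scores was not tested. Without the 84 members the median GFP score stayed at 57 and the median GC content was 48.6%, a comparison added after these members were seen.

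Among single-copy members outside those zones, the highest ranks included chr14:8286646-8286862, 23 kb downstream of the TSS of Fam107a, with scores of 519 and 416. Others were chr17:17004473-17005531, a peak of 1059 bp upstream of Zfp960 with 507 and 259, and chr1:150496746-150497258, 30.8 kb upstream of Prg4, a joint lubricant, with 238 and 233. The member 177 kb from Sox9 ranked 10 among all single-copy members. At the lower edge of the TSS rule, the nearest members lay 10004 bp (chr8:89156855-89157268, scores 57 and 71) and 10009 bp (scores 39 and 64) from a TSS, and the nearest peaks left out lay at 9991 bp (scores 76 and 74) and 9986 bp (138 and 66). At the repeat limit, the members with most repeats held 49.9% and 49.8% soft-masked bases, and the peaks just left out held 50% and 50.1%.

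Members lay closer to a TSS than the sequence open to them. The background was the whole of the intergenic sequence that met the position and repeat rule, 594 Mb in 2972473 tiled windows of 200 bp. The median distance to the nearest TSS was 23509 bp (22517 to 24524) for members and 40040 bp for the windows. Between 10 and 20 kb from a TSS lay 916 members (42.1%, 40.1 to 44.2) but 23.3% of windows, and beyond 100 kb lay 126 members (5.8%, 4.89 to 6.86) but 18.4% of windows. The nearest coding TSS was a median of 45250 bp away for members (42114 to 48669) and 171283 bp away for windows. The GFP peaks without a SRCAP peak had the same pattern, with 42.1% between 10 and 20 kb, a difference from members of 0.0569 percentage points (Newcombe 95% interval -2.99 to 3.1). Members lay upstream of the nearest coding TSS in 63.4% of cases (61.4 to 65.4), against 58.5% of windows.

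Not all members were far from transcribed units in another annotation. In RefSeq, 332 members (15.3%, 13.8 to 16.8) fell inside a gene, 262 of them in long noncoding RNA genes and 62 in protein-coding genes, against 9.25% of windows. A coding gene with a shared peak within 1 kb of its TSS was the nearest coding gene for 611 members (28.1%, 26.3 to 30) and for 20.7% of windows. The same share among GFP peaks without a SRCAP peak was 26.7%, 1.45 points lower (interval of the difference -1.31 to 4.19).

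The members were nearest to 1610 different coding genes, and 1206 of these were nearest to a single member. The genes with most members, named after their counts were seen, included Sall1, Sox2, Slc4a3 and Tle4 beside the uncharacterised Gm21119. The rule-meeting sequence nearest to each gene differs in length, being 616 kb for Sall1, 289.8 kb for Sox2, 591 kb for Slc4a3, 639 kb for Tle4, 314 kb for Rybp and 180.2 kb for Sfmbt2, and the density over all such sequence was 3.66 members per Mb. Sall1, a zinc finger repressor of the Spalt family, had 8 members 19.6 to 528 kb from its TSS, with GFP scores of 35 to 190 and SRCAP scores of 30 to 172. The strongest, chr8:89271335-89272117, lay 228 kb upstream. Tle4, a Groucho corepressor, had 6 members, all upstream, of which chr19:14792262-14793243 scored 125 and 148. Slc4a3, an anion exchanger, had 6 members, all downstream. Rybp, a subunit of Polycomb repressive complex 1, had 5 members, with up to 190 and 134 at chr6:100335484-100336138. Sfmbt2, a Polycomb group protein, had 5 members upstream. Gm10767, Pik3c3, Slc44a1, Trmt9b and Ttc29 had 5 members each as well. A member may act on another gene than the nearest, and nothing here tests which gene it acts on.

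Sox2, a core pluripotency factor with known distal enhancers downstream in mESCs, was nearest to 7 members, all downstream and all single-copy. They lay 95, 111, 145, 235, 434, 453 and 504 kb from its TSS. Their GFP scores were 74, 37, 96, 54, 80, 22 and 55 and their SRCAP scores 53, 70, 56, 18, 61, 34 and 34 in the same order. Their combined percentiles ran from 4.14 at 235 kb, set by its SRCAP score, to 66.4 at chr3:35084372-35084787, 434 kb away, so none was in the top 25% of both lists. The member 111 kb downstream is shown for its AP-1 match (capitals), a sequence that was not more frequent in members than in flanks beyond their intervals.
Sox2 member, chr3:34761370-34761476, plus strand: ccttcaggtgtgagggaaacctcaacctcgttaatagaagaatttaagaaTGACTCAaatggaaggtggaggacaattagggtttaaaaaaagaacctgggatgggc

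Genes of the pluripotency list were nearest to 36 members (1.66%, 1.2 to 2.28) at 18 of the 47 listed genes, and to 0.626% of windows, a 2.65-fold difference. The GFP peaks without a SRCAP peak reached 1.59% (1.12 to 2.26), 0.0661 points below members (interval of the difference -0.746 to 0.853). The list was chosen with results of these data known. Jarid2, a cofactor of Polycomb repressive complex 2, had 3 members upstream. Klf5, a reprogramming-family zinc finger factor, had 3 downstream, and Nr5a2, an orphan nuclear receptor, had 3 upstream. Mycn had a member 13.1 kb downstream with scores of 244 and 171 (chr12:12926995-12928086), and Zfp42, known as the stem cell marker Rex1, a member 14 kb upstream with 201 and 176. Weaker members were nearest to Pou5f1, which encodes OCT4 (75 and 51, 15.3 kb upstream), Klf4 (53 and 87), Esrrb (49 and 47), Tbx3 (64 and 124) and Sall4 (87 and 71). Among the listed genes nearest to most members were also Klf2 (73 and 89) and Myc (71 and 40). The Klf4 member, 12 kb downstream of the TSS, held an octamer, as did the strongest of the Jarid2 members, at 23.9 kb with scores of 239 and 116, printed here with the octamer in capitals.
Jarid2 member, chr13:44705618-44705725, minus strand: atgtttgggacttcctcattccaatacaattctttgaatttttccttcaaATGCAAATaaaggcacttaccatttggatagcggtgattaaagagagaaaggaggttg

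Genes of the lineage list, regulators of differentiation, were nearest to 16 members (0.736%, 0.454 to 1.19), close to the 0.752% of windows. The GFP peaks without a SRCAP peak reached 0.265%, and the difference of 0.471 points had an interval of 0.0183 to 0.952. The strongest of these members was nearest to Sox9 (221 and 251). Foxd3, a neural crest and epiblast factor, had a member 14.2 kb upstream with 221 and 157, and Sox1, a neural factor, had 3 members, the strongest with 174 and 246. The highest-ranked member nearest to Hand1, a heart and trophoblast factor, scored 76 and 60. Developmental families (1.43% of members against 1.17% of windows), ribosomal protein genes (0.276% against 0.329%) and olfactory and vomeronasal receptor genes (0.552% against 0.747%) differed from the windows by less than the interval of the members. Proteasome genes were nearest to 6 members at 4 genes (0.276%, 0.127 to 0.601), against 0.0398% of windows and 0.318% of GFP peaks without a SRCAP peak.

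Members were unevenly spread over chromosomes. Chromosome 8 held 248 members, 7.56 per Mb of rule-meeting sequence, and chromosome 11 held 164, 6.16 per Mb. The other chromosomes held between 1.85 (chromosome 14) and 4.14 per Mb (chromosomes 13 and 19), and the average without chromosome 8 was 3.43. The density of GFP peaks without a SRCAP peak was also highest on chromosome 8, at 5.46 per Mb against 3.04 without it. Median scores of members on chromosome 8 were 61 (54 to 65) and 65 (60 to 72), against 57 and 53 elsewhere. The cause of the chromosome 8 density was not tested.

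Within chromosomes, 337 members (15.5%, 14 to 17.1) were linked to another member in a 25 kb window centred on them, and members were chained by such links. They formed 130 pairs, 17 groups of 3 and 5 larger groups. The largest, on chromosome 8 at chr8:20494046-20516947, spanned 22.9 kb with 8 members 98.1 to 121 kb from the TSS of Gm21119, their nearest coding gene, but only 2 of them had a single-copy centre. The next had 5 members. One on chromosome 13 (chr13:66710639-66727026) had 2 single-copy centres, whereas all 5 of the other, chr8:36523068-36549254, were single-copy and lay 34 to 59.9 kb from the TSS of Trmt9b, a tRNA methyltransferase gene, with GFP scores of 24 to 288. The remaining large groups had 4 members each, one of them between N4bp2 and Pds5a, a cohesin regulator.

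Member sequence was richer in G and C than its surroundings. In the 500 bp at the midpoint, median GC content was 48.4% (48.2 to 48.8), against 40% in all rule-meeting windows and 56% at shared promoter peaks. GC content over the surrounding 100 kb was 44% (43.9 to 44.1) for members and 40% for windows, so members lay in GC-rich regions and rose above these. The CpG ratio was 0.241 (0.234 to 0.251) for members, 0.14 for windows, 0.627 for shared promoter peaks and 0.213 (0.205 to 0.221) for shared peaks inside genes. The GFP peaks without a SRCAP peak had 47.4% GC (47 to 47.6) and 0.235 (0.227 to 0.241), the GC content lower than that of members and the CpG ratio with an overlapping interval.

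**Figure D2:**
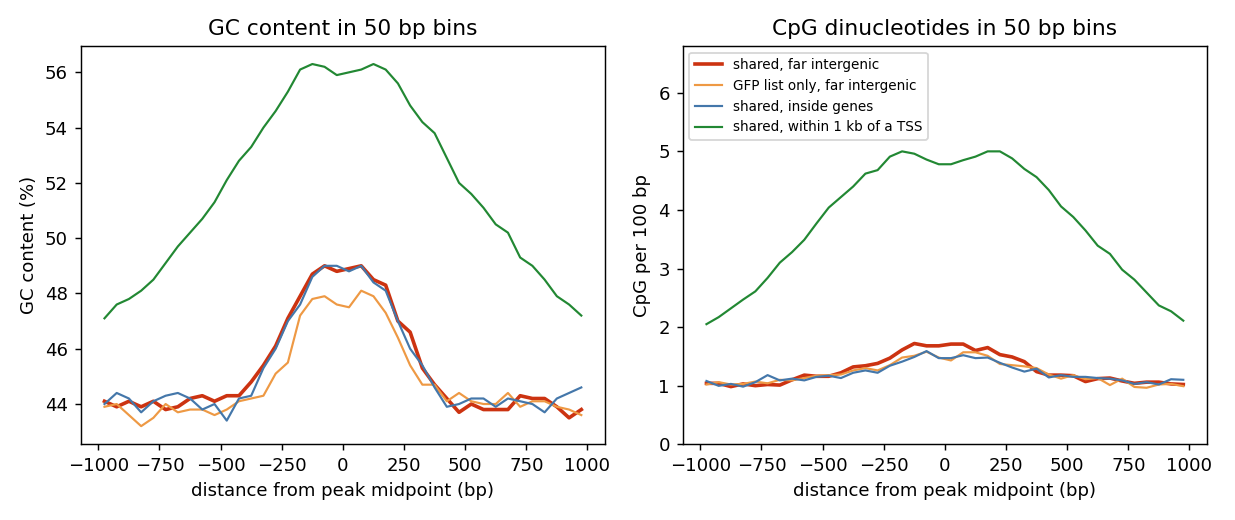
GC content in percent (left) and CpG dinucleotides per 100 bp (right) in 50 bp bins of distance from the peak midpoint, averaged over 2174 members (red), 1887 far intergenic GFP peaks without a SRCAP peak, 1827 shared peaks inside genes and 6019 shared peaks within 1 kb of a TSS. Members rise from 44.1% GC in the outermost bin on the left to 48.9% beside the midpoint, close to the shared peaks inside genes and far below promoters.

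CpG-island-like members, with at least 55% GC and a CpG ratio of at least 0.65 over 500 bp, were rare: 22 of 2174 (1.01%, 0.669 to 1.53), against 35.1% of shared promoter peaks and 0.0242% of windows. The GFP peaks without a SRCAP peak held 0.371%, 0.641 points fewer (interval 0.12 to 1.19), and shared peaks inside genes 0.547%, a difference of 0.465 points whose interval of -0.107 to 1.04 included 0. The central 200 bases of the highest-ranked single-copy ones outside chromosome 8 are printed with each CG in capitals to show how densely they lie. The first, 15.8 kb from Gm6020, scored 185 and 190. The second, 29.7 kb upstream of Rbfox2, a splicing factor gene, scored 179 and 111.
CpG-rich member nearest to Gm6020, chr19:61199578-61199777, plus strand: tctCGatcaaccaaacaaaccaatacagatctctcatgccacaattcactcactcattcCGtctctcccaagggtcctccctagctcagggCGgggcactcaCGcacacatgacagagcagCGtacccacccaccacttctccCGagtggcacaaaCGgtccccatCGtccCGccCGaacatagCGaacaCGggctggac
CpG-rich member nearest to Rbfox2, chr15:77336569-77336768, plus strand: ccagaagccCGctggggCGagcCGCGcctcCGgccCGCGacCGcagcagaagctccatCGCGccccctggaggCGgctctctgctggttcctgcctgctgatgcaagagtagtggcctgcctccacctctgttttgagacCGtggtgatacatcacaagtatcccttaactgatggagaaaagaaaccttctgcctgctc

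The motif counts were taken in the 200 bp at each midpoint, on both strands, for 21 consensus sequences, 4 of them longer and given by name alone (CTCF, OCT4-SOX2, ZNF143 and REST), beside 4348 windows of the same length 1 kb either side and all rule-meeting windows. In 7 of them the interval of members lay above both. In letters, the octamer was ATGCAAAT, SOX CCATTGTT, KLF GGGNGTGGC, NFY CCAATCAG, ZIC CAGCAGGG and TEAD ACATTCCA, with N any base. The others were ESRRB TCAAGGTCA, PRDM14 GGTCTCTAA, STAT3 TTCCNGGAA, OTX2 CTAATCCC, E-box GTCACGTG, ETS CCGGAAGTG, YY1 AAGATGGCG and NRF1 GCGCATGCG, and NANOG-type, AP-1 and GATA had 7 letters each, given where they are described. A composite OCT4-SOX2 match can hold an octamer. A match describes letters and does not show that the factor was bound. At least 1 of the 7 was present in 403 members (18.5%, 17 to 20.2), in 6.07% (5.4 to 6.82) of flanks, in 5.92% of windows and in 13.2% (11.8 to 14.9) of GFP peaks without a SRCAP peak. The members exceeded these GFP peaks by 5.29 points (interval 3.04 to 7.52) and the shared peaks inside genes by 1.51 points (interval -0.873 to 3.88). The 7 were picked because members exceeded flanks and windows, so the joint excess over both was fixed by that choice. The comparisons with other peaks use this same list, picked in members.

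CTCF was the most enriched relative to flanks: 43 members (1.98%, 1.47 to 2.65) against 6 flanks (0.138%), 14.3-fold, and 0.216% of windows with the members' GC content. ZIC matched in 107 members (4.92%, 4.09 to 5.91) against 1.22% of flanks, 4.04-fold. The ZIC letters can lie wholly inside a CTCF match. Among members with no exact CTCF match, 102 of 2131 held ZIC (4.79%). A CTCF site that departs from the consensus could be among these, so exact search cannot separate ZIC from CTCF. NFY, a factor of CCAAT boxes, matched in 52 members (2.39%, 1.83 to 3.12) against 0.644% of flanks. The OCT4 octamer matched in 87 members (4%, 3.26 to 4.91) against 1.26% (0.973 to 1.64) of flanks. It matched in 1.66% of all windows and in 0.895% of windows with the members' GC content. KLF matched in 58 members (2.67%, 2.07 to 3.43) against 1.03%, SOX in 45 (2.07%, 1.55 to 2.76) against 0.92%, and TEAD in 40 (1.84%, 1.35 to 2.5) against 0.966% of flanks. Windows with the members' GC content held ZIC in 2.2%, NFY in 0.837%, KLF in 1.32%, SOX in 0.8% and TEAD in 1.05%. Against these windows members had 2.24-fold more ZIC and 2.02-fold more KLF. The TEAD call was lost under 6 of 10 alternatives, single-copy members among them.

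Other sequences tied to mESC factors were not raised in this test. Among them was the OCT4-SOX2 composite, whose interval in members (0.0252 to 0.335) overlapped that of flanks (0 to 0.0883). ESRRB matched in 11 members (0.506%) and 0.897% of flanks, with a difference of -0.391 points (interval -0.787 to 0.0737). The NANOG-type sequence (TTAATGG) matched in 1.47% of members and 1.98% of flanks (interval of the difference -1.13 to 0.2). The AP-1 sequence (TGANTCA), the most common, matched in 178 members (8.19%, 7.11 to 9.42) and 6.51% of flanks, where the difference of 1.68 points (interval 0.351 to 3.09) was above 0 but the interval overlapped those of flanks and windows. The sequence of GATA factors (AGATAAG, 3.27% against 2.94% of flanks), STAT3 (0.782% against 0.644%) and OTX2 (0.69% against 0.437%) had intervals of the difference that included 0. PRDM14 (0.092%) and YY1 (0.092%) matched in 2 members each, and REST in none of 2174, which allows a share of up to 0.176% by the Wilson interval. Exact search misses sites that depart from the consensus.

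**Figure D3:**
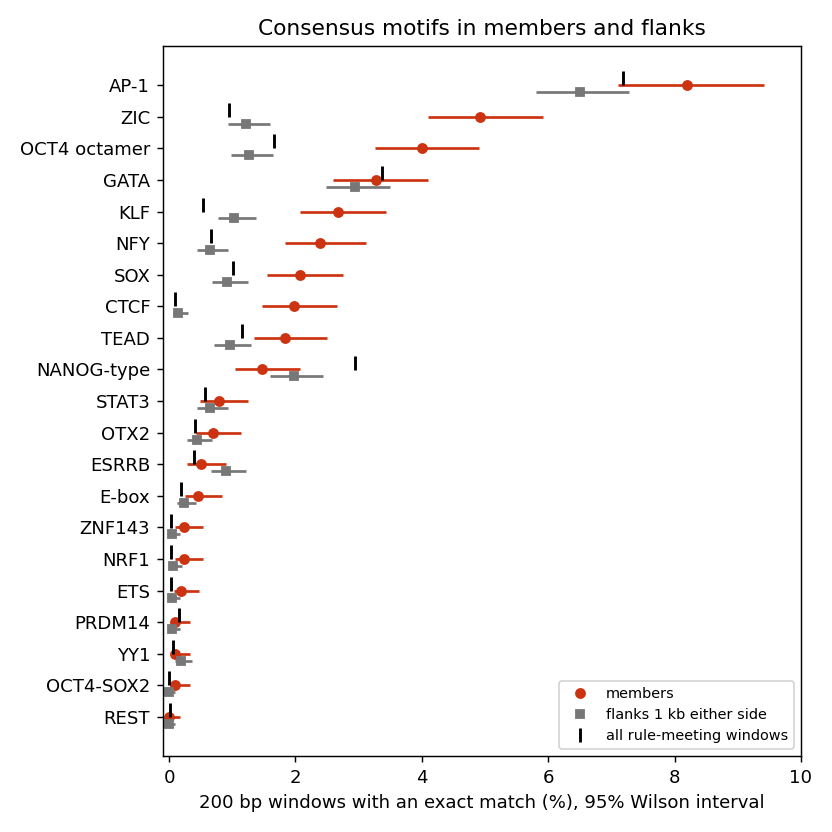
Share of 200 bp windows with an exact match to each of 21 consensus sequences, in percent, at the member midpoints (red, bars are 95% Wilson intervals), in flanks 1 kb away (grey squares) and in all rule-meeting windows (black ticks). CTCF, ZIC, NFY, OCT4 octamer, KLF, SOX and TEAD lie above both references, and NANOG-type lies below the windows.

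Against shared promoter peaks the order of motifs changed. Members carried more octamers (by 2.66 points, interval 1.84 to 3.6), ZIC (2.83, 1.91 to 3.87), SOX (1.52, 0.957 to 2.23) and AP-1 (4.6, 3.41 to 5.9) than promoter peaks. CTCF (1.23, 0.665 to 1.93), TEAD (1.28, 0.74 to 1.95) and GATA (1.64, 0.882 to 2.52) were also more frequent in members, and YY1 less (-0.888, -1.18 to -0.561). Members carried fewer NFY (by -2.73 points, -3.54 to -1.82), KLF (-2.25, -3.08 to -1.33), ZNF143 (-2.84, -3.33 to -2.33), ETS (-1.28, -1.63 to -0.881), NRF1 (-1.07, -1.41 to -0.666) and E-box (-1.22, -1.63 to -0.733) matches, sequences typical of promoters. Against the GFP peaks without a SRCAP peak, members had more ZIC (1.69 points, 0.465 to 2.91), NFY (1.33, 0.53 to 2.15) and octamer matches (1.25, 0.123 to 2.36) and fewer NANOG-type ones (-1.02, -1.93 to -0.162). Against shared peaks inside genes, TEAD alone among the 7 differed, by 0.8 points (0.0444 to 1.55), and its enrichment over flanks and windows was the one lost under most alternatives. The compared sets differ in score and width as well, and the part of these was not tested.

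Of the 7 motifs, the octamer, SOX, CTCF and NFY differed with distance to the nearest TSS, a choice made after the values were seen. The octamer was present in 24 of 916 members at 10 to 20 kb from a TSS (2.62%, 1.77 to 3.87), in 4.14% at 20 to 50 kb, in 6.64% at 50 to 100 kb and in 9 of 126 members beyond 100 kb (7.14%, 3.8 to 13). Over all rule-meeting windows it rose less, from 1.47% to 1.88%. Members over 50 kb away held 4.18 points more octamers than those at 10 to 20 kb (interval 1.77 to 7.15) and 1.95 points more SOX sequences (0.35 to 4.19), although SOX was at 3.5% at 50 to 100 kb and 2.38% beyond. CTCF and NFY ran the other way. Members over 50 kb away held 2 points fewer CTCF sequences (interval of the difference -3.36 to -0.359), 0.728% against 2.73%, and NFY was at 1.21% against 3.49% (-2.28 points, -3.84 to -0.393). These far values rest on few matches. CTCF matched in 1 of 286 members at 50 to 100 kb (0.35%) and in 2 of 126 beyond (1.59%, 0.436 to 5.6). NFY matched in 4 and 1 of the same members. CTCF fell in the windows as well, from 0.138% at 10 to 20 kb to 0.0671% at 50 to 100 kb and 0.0365% beyond, and whether the members fell more was not tested. NFY was at 0.722% of windows at 10 to 20 kb and 0.582% beyond 100 kb. In the same order of distance, members held KLF at 2.73%, 2.48%, 2.8% and 3.17% and ZIC at 4.91%, 4.14%, 7.34% and 4.76%, with no steady order, and TEAD at 1.97%, 2.13%, 1.05% and 0.794%, the last from 1 match. These 3 were not tested for a difference with distance. GC content fell with distance as well, from 49.6% at 10 to 20 kb to 44.7% beyond 100 kb. How much of these trends follows base composition was not tested.

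**Figure D4:**
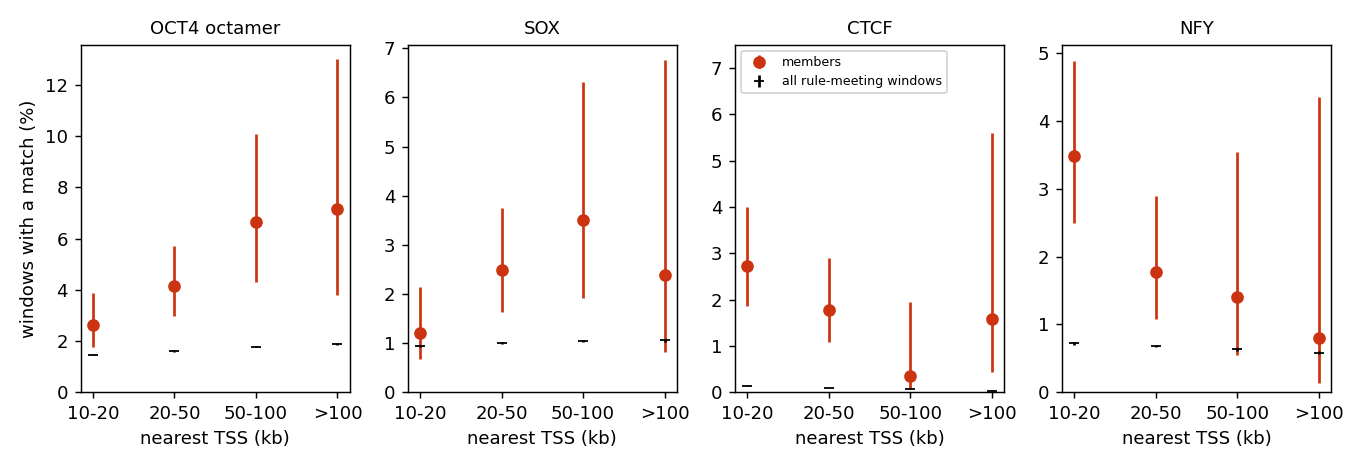
Share of members with an exact match in percent (red points, bars are 95% Wilson intervals) by distance to the nearest TSS in kb, for the OCT4 octamer, SOX, CTCF and NFY sequences, with all rule-meeting windows in black. The octamer share of members climbs from 2.62% to 7.14%, and the NFY share falls from 3.49% to 0.794%, the last from 1 match.

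By combined rank, the octamer was at 2.94% in the lowest 544 and 5.13% in the highest 526 members, a difference of 2.19 points whose interval of -0.191 to 4.69 included 0. SOX was at 0.909% (0.389 to 2.11) in the second rank group of 550 and 3.8% (2.47 to 5.8) in the highest, against 2.02% in the lowest, and the highest and lowest differed by 1.78 points (interval -0.27 to 3.97). Members with CTCF had median scores of 40 (40 to 51) and 47 (40 to 60), the GFP value below the interval of all members, and members with SOX had 77 (62 to 92) and 74 (60 to 96). Width rose with rank, from a median of 289.5 bp in the lowest rank group to 516 bp (475 to 536) in the highest, while GC content stayed between 48.2% and 48.8%.

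CTCF sequences lay both at the peak midpoint and beside it, with most in the step from 100 to 150 bp. Among the 133 matches within 300 bp of a member midpoint, 27 lay within 50 bp, 19 between 50 and 100 bp, 47 between 100 and 150 bp and 23 between 150 and 200 bp (the 50 bp steps were chosen after the plot was seen). The 100 to 150 bp step thus held 35.3% (27.7 to 43.8), and a step between 500 bp and 1 kb held 1.5 matches on average. In total 132 members had such a match (6.07%, 5.14 to 7.16). With the midpoints of the SRCAP peaks of the same members, 58 of 137 matches lay at 100 to 150 bp (42.3%, 34.4 to 50.7), and in GFP peaks without a SRCAP peak 39 of 94 (41.5%, 32.1 to 51.6). The midpoint lay downstream of the sequence, read along the CTCF strand, for 78 of 133 matches (58.6%, 50.1 to 66.7). In shared peaks inside genes the same step held 25.4% (18.3 to 34.1) and the midpoint was downstream for 50.9% (41.8 to 59.9).

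Most other sequences were densest near the GFP midpoint. ZIC had 59 matches within 50 bp, 55 between 50 and 100 bp and 46 between 100 and 150 bp, and a step between 500 bp and 1 kb held 16. With SRCAP midpoints the first 3 steps of ZIC held 49, 67 and 50. KLF went from 38, 27 and 22 with GFP midpoints to 35, 39 and 32, and TEAD from 22, 19 and 21 to 20, 22 and 26. NFY moved the other way, from 26, 30 and 25 to 37, 22 and 23. SOX had 31 within 50 bp and 15 in the next step, although with SRCAP midpoints these were 21 and 26. The octamer was flatter, with 48, 48 and 55 matches in the first 3 steps and 14.5 at 500 bp to 1 kb. With SRCAP midpoints its steps were 63, 55 and 28, which were closer to the midpoint. A member with a CTCF sequence (capitals) 116 bp before the GFP midpoint is printed to the base 50 beyond that midpoint, which is at base 143. It lay 17.2 kb upstream of Dusp7, a MAP kinase phosphatase gene, and scored 76 and 89.
CTCF beside the midpoint, member nearest to Dusp7, chr9:106351267-106351459, plus strand: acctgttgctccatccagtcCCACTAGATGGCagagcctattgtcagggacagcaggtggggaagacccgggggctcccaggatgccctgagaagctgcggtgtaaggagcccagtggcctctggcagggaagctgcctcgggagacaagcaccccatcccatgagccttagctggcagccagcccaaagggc

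**Figure D5:**
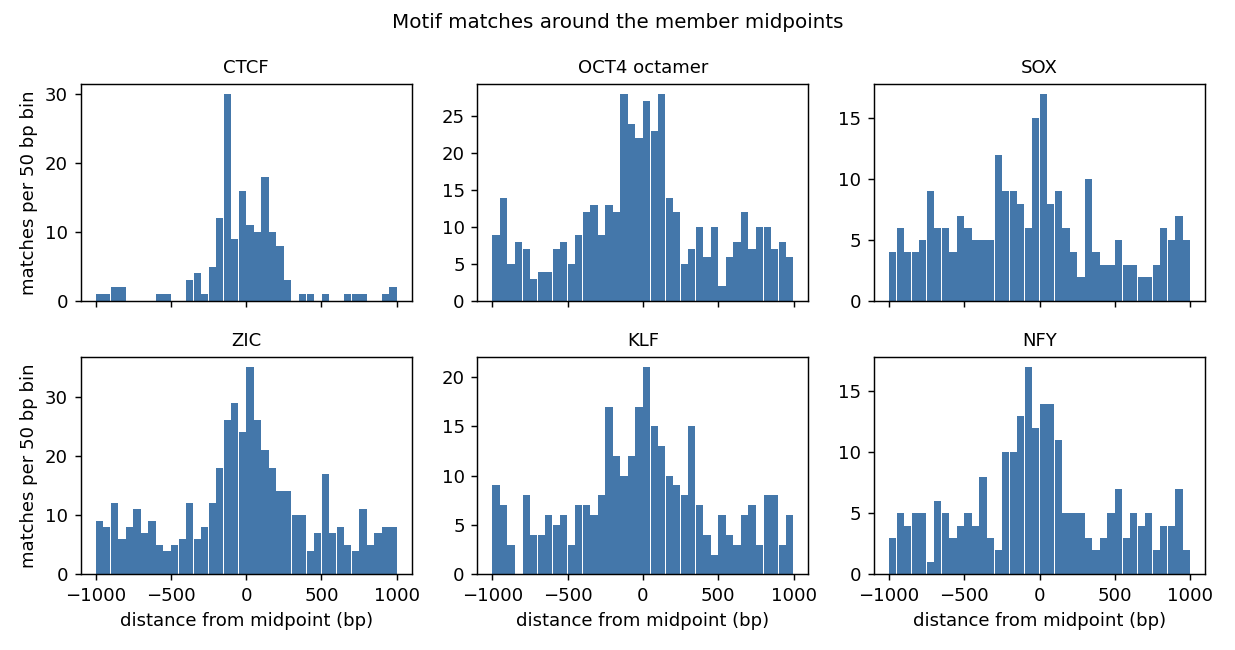
Number of exact matches in 50 bp bins of distance from the GFP peak midpoint (x axis, bp), for 6 consensus sequences over the 2174 members. CTCF matches peak at 100 to 150 bp on either side, with 30 matches in the bin on the left, 18 in the bin on the right and 27 in both bins beside the midpoint.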

How the data were processed

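Peak lists from 2 CUT&RUN libraries of SYAT mESCs were used, 1 with a GFP antibody and 1 with a SRCAP antibody, each diluted 1:50, from 100000 cells fixed in 0.1% formaldehyde for 5 min (250 bp inserts, paired reads of 75 nt). The study's methods name only the SRCAP antibody for CUT&RUN, so the assay of the GFP library rests on its label. The authors deposited 1 whole-number score per peak, with a minimum of 13 in each list and a meaning that was not stated. Its meaning, the caller settings and the control for CUT&RUN are not given in the sources used here. Per the labels, STAR, Picard, MACS2 and the mm10 (GRCm38) and dm6 builds were named, and the study's methods describe unique mapping, duplicate removal and blacklist exclusion for its ChIP-seq. Unique mapping would lower signal in repeated sequence. Blacklisted regions were not removed here. The depth is unknown.

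Peaks were placed at their midpoints and annotated with GENCODE vM21. GC content and CpG ratio were computed in 500 bp, motifs in 200 bp, and copies of the central 31 bases by exact match on both strands, with Python 3.11.15, numpy 2.4.6, pandas 2.3.3, scipy 1.17.1 and matplotlib 3.10.9. Intervals of differences of shares are Newcombe 95% intervals. The overlap, motif and interval steps were tested on simulated data. With 1 library per antibody no test between antibodies was made. The members, gene lists and motifs were chosen with earlier results of these data known. The named members were the 10 of highest combined rank, the highest-ranked with each motif above flanks and windows, of the 5 largest groups, of the 10 pluripotency and lineage genes nearest to most members, 5 CpG-island-like ones and those at the limits of the rule. Others are named as chosen after their values were seen: the highest-ranked single-copy members, Sall1, Tle4, Slc4a3, Rybp, Sfmbt2, all members of Sox2 and Jarid2, and further listed genes. Sequences were read from GRCm38, and chromosomes 8 and 18 were left out of those printed. Some named members are not reported here.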

Additional observations from a re-analysis of the deposited data

How the results depend on the processing

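No paired analysis was possible because there was a single library for each antibody. Of 135 values under alternatives, 94 stayed within the interval of the reported value or, for counts, within 1.5 times it. The other 41 are given here. With the lower-scoring pairs left out (both peaks had to reach their list's median score), 1035 members remained, with a median width of 448 bp, a median score of 82, 8.89% past a 2-fold score ratio, a CpG ratio of 0.227, 8.5% with a neighbour in the 25 kb window and 1.74 members per Mb. With a reciprocal overlap of 50%, the shared share was 39.5%, width 349 bp, score 60, neighbours 11% and density 2.7 per Mb. Over 50 kb from every TSS, 412 members had a width of 394 bp, a score of 64, a distance of 78560 bp, 46.8% GC, a CpG ratio of 0.186, 0.243% CpG-island-like, 10.7% neighbours, 1.67 per Mb and 3 motifs above flanks and windows (OCT4 octamer, KLF and ZIC). Under 20% soft-masked bases, GC was 49%, the CpG ratio 0.265, neighbours 11.4%, density 4.52 per Mb and single-copy centres 97.7%. SRCAP peaks meeting the rule were 295 bp wide. With protein-coding annotation only, 3791 members had a CpG ratio of 0.255, 2.27% CpG-island-like, 21.2% neighbours, 4.51 per Mb and 92.5% single-copy. Their median distance of 13895 bp was measured to the nearest TSS of any transcript, including the noncoding ones that this setting ignores. Without chromosome 8, neighbours were 13.6% and density 3.43 per Mb. A 400 bp motif window gave a share of 32.9%, composition over 200 bp 49% GC and over 1000 bp 0.368% CpG-island-like. Outside RefSeq genes, an alternative added after seeing the data, single-copy centres were 97%. The causes were not tested. The OCT4 octamer, KLF and ZIC stayed above flanks and windows under all alternatives run, and CTCF, SOX and NFY under all but the 50 kb distance. TEAD was lost under 6 of the 10 in which motifs were counted again, including the single-copy members (added after seeing the data). ETS and NRF1 joined the motifs above flanks and windows with the 400 bp window, and ZNF143 did so with protein-coding annotation only. Depth and replicate spread are unknown, so a peak missing from a list does not show that SRCAP was absent there.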
